A study of Rattus norvegicus with 12 samples.

Results

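The genes described here encode the carriers and enzymes that take glucose to lactate and pyruvate, and the enzymes that pass pyruvate into and around the tricarboxylic acid (TCA) cycle. They were taken from a list of 46 symbols, and a gene was kept where its transcript averaged at least 1 TPM (a transcript's length-scaled share of the library) over the 12 libraries. Of the 46 symbols, Gapdh, Tpi1, Ldha and Pkm are not analysed here, and Aldoc and Slc16a3 lay under 1 TPM. The other 40, each with 1 locus, are described, out of 30562 genes in the deposited table and 12263 genes at 1 TPM or more. They form a glycolysis group of 19 genes (glucose uptake, glycolysis, lactate) and a pyruvate and TCA group of 21 genes, reported apart. RNA was sequenced from H9c2, a myoblast line derived from embryonic heart of the rat, in 4 groups of 3 libraries. The MMA group received methylmalonic acid, an acid that builds up when vitamin B12-dependent propionate breakdown fails. The FA group received folic acid, the synthetic form of the vitamin folate, the MMA_FA group received both, and the Ctrl group is the control. No dose, exposure time or vehicle is stated in the sources used here. Nothing says that replicates were separate cultures, so p-values measure the spread between these libraries, which may be technical.

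Glycolysis breaks glucose down to pyruvate in the cytosol, with hexokinase and phosphofructokinase at its regulated early steps. Pyruvate is then reduced to lactate by lactate dehydrogenase, and lactate leaves or enters the cell through proton-coupled monocarboxylate transporters, or pyruvate enters mitochondria and is converted by the pyruvate dehydrogenase complex to acetyl-CoA, which citrate synthase feeds into the TCA cycle. Adult heart muscle draws mainly on fatty acids and also oxidises lactate, whereas cultured myoblast lines rely heavily on glucose. Propionate breakdown, the route that forms methylmalonic acid in the body, joins the TCA cycle at succinyl-CoA.

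Each value is the authors' TPM, a length-scaled share of a library's total that keeps no read depth, so the depth behind a value is unknown. In the libraries, 12070 to 12286 genes reached 1 TPM, and the 13 mitochondrially encoded genes took 8.78 to 11.4% of the total. The lowest correlation between libraries of a group was 0.987 on the log2(TPM + 1) scale. FA replicate 2 had the lowest summed glycolysis level of the FA libraries, at 4488 TPM, against 4775 and 4988 TPM in FA replicates 1 and 3. Leaving out 1 library gave 2 to 7 glycolysis and 0 to 5 pyruvate and TCA members called with FA, against 5 and 4 with all libraries. The highest counts, 7 and 5, came without FA replicate 2. The shares of all genes called in those fits are not given here. The labels call the cells cardiomyocytes, but only 3 of 12 cardiomyocyte markers averaged 1 TPM (Tnnt2, Gata4 and Nkx2-5). Myh6, Myh7, Nppa and Ryr2 were at or near 0 in every library. Of the skeletal muscle markers, 6 of 13 averaged 1 TPM, but Pax7 was at 0 in every library. Myf5, Myf6, Actn3 and Ckm of that list averaged 0.014, 0.073, 0.17 and 0.24 TPM. Of the fibroblast markers, 8 of 10 averaged 1 TPM. Of all 30562 genes, 12263 did. In bulk RNA, fewer cells of a type and less RNA per cell cannot be told apart. Differences are log2 differences of group means of log2(TPM + 1), and calls rest on limma with p adjusted by Benjamini-Hochberg over all 12263 genes, at a threshold of 0.05.

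Among the 19 glycolysis genes, which leave out Gapdh, Tpi1, Ldha and Pkm, the highest transcripts were Eno1, Aldoa and Pgam1. Averaged over the 12 libraries, Eno1 (enolase) stood at 1377 TPM, Aldoa (aldolase) at 1147 TPM and Pgam1 (phosphoglycerate mutase) at 801 TPM, against 6.28 TPM for the glucose carrier Slc2a1. In the pyruvate and TCA group the levels ran from 361 TPM for Mdh2, the mitochondrial malate dehydrogenase, to 13.5 TPM for Pc, pyruvate carboxylase. Summed over the 19 glycolysis genes, the level was 4442 ± 80.2 TPM in MMA libraries, 4750.1 ± 251 TPM in FA libraries, 4703 ± 35.2 TPM in MMA_FA libraries and 4598 ± 67.1 TPM in Ctrl libraries (SD, n = 3 each). Summed over the 21 pyruvate and TCA genes, it was 2000.0 ± 19.7 TPM in MMA libraries, 1964 ± 8.58 TPM in FA libraries, 1951 ± 14.9 TPM in MMA_FA libraries and 2005 ± 16.0 TPM in Ctrl libraries. The glycolysis sums of MMA libraries lay below those of Ctrl libraries without overlap (at the nearest, 4526 against 4532 TPM), and the TCA sums of FA and MMA_FA libraries did so too. After median-ratio scaling, described below, the orders of the means turned. The scaled glycolysis sums of MMA and Ctrl libraries overlapped, as did the scaled TCA sums of FA and Ctrl libraries. The scaled TCA sums of MMA and MMA_FA libraries lay above all those of Ctrl libraries. The glycolysis sum was 4482 ± 144 TPM in MMA and 4382 ± 83.6 TPM in Ctrl libraries. The TCA sum was 2033 ± 45.5 TPM in MMA_FA and 1911 ± 15.2 TPM in Ctrl libraries. The TCA sum of FA libraries, 1940.2 ± 16.5 TPM, and that of MMA libraries, 2018 ± 13.0 TPM, were then above the Ctrl sum too. The sums are given with no test. Aldoc, a second aldolase, was at 0.20 ± 0.13 TPM in MMA, 0.15 ± 0.044 TPM in FA, 0.25 ± 0.035 TPM in MMA_FA and 0.16 ± 0.12 TPM in Ctrl libraries. Slc16a3, the lactate exporter of glycolytic muscle, was at 0.083 ± 0.055 TPM in MMA, 0.24 ± 0.14 TPM in FA, 0.12 ± 0.044 TPM in MMA_FA and 0.18 ± 0.10 TPM in Ctrl libraries.

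**Figure D1:**
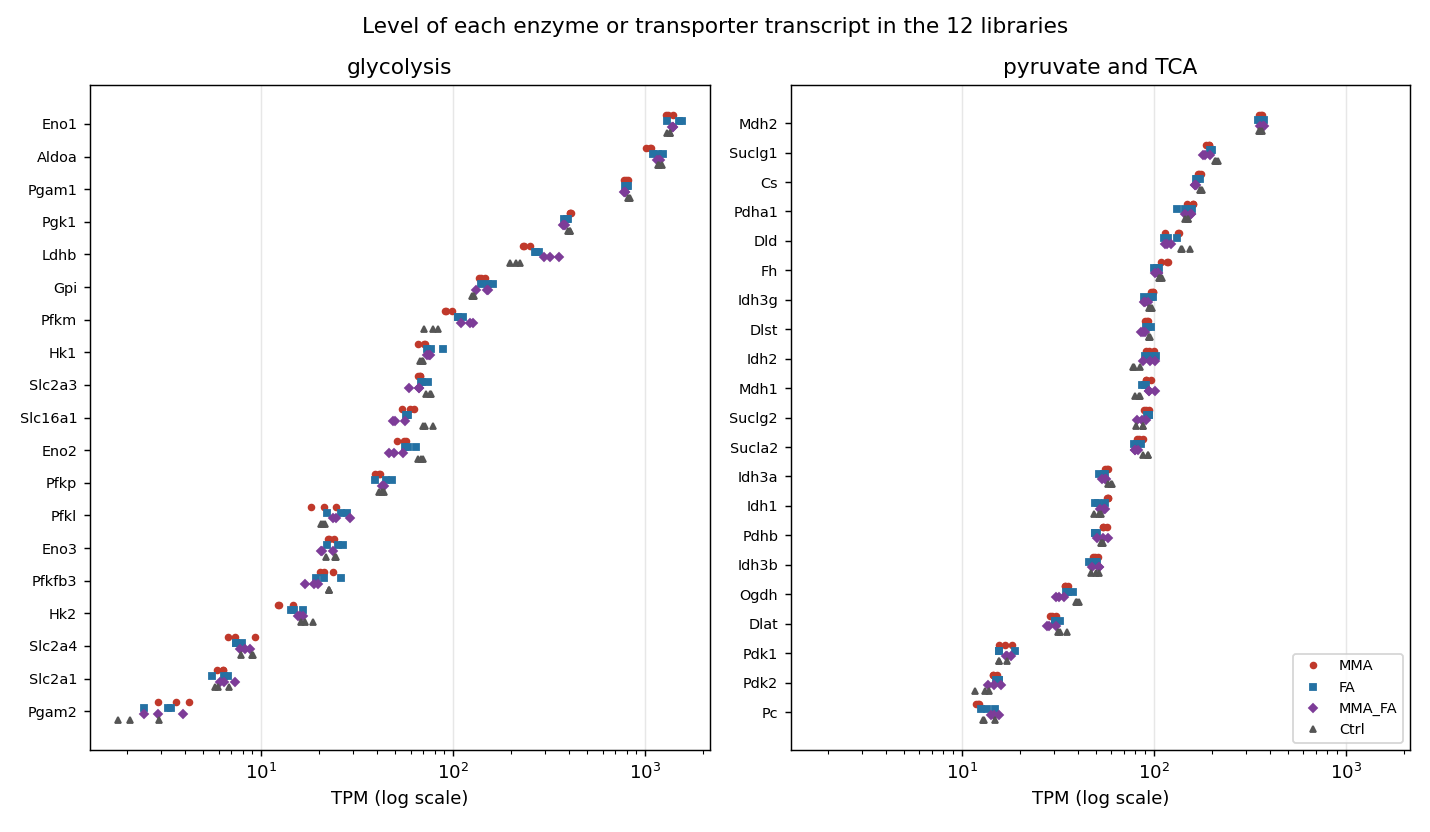
TPM (log scale) of each of the 40 transcripts in the 12 libraries, glycolysis group on the left and pyruvate and TCA group on the right, with 1 point per library coloured by group. Eno1, Aldoa and Pgam1 lie highest, and for most transcripts the 4 groups lie within a narrow span compared with the distance between genes.

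In the glycolysis group, the muscle-type phosphofructokinase Pfkm and the heart-type lactate dehydrogenase subunit Ldhb were higher, and the enolase Eno2 and the lactate and pyruvate transporter Slc16a1 were lower, when cells received MMA and FA together. Pfkm was 1.54-fold and Ldhb 1.53-fold the Ctrl level in MMA_FA libraries, and Eno2 and Slc16a1 were 0.74-fold and 0.71-fold (folds on the log2(TPM + 1) scale). Pfkm was also higher with MMA alone and FA alone, Slc16a1 was also lower with each, Ldhb was higher with FA alone, and Eno2 and the hexokinase Hk2 were lower with MMA alone. Against Ctrl, 8 of 19 members were called in MMA_FA libraries, 3 higher and 5 lower, where 39.3% of all genes tested were called (6.67% higher and 32.6% lower). With MMA alone 6 of 19 were called, 1 higher and 5 lower, where 20.4% of all genes were called (3.85% higher and 16.5% lower). With FA alone 5 of 19 were called, 4 higher and 1 lower, where 12.4% of all genes were called (3.67% higher and 8.70% lower). The median log2 difference of the 19 members was -0.02 in MMA_FA against Ctrl, where that of all genes was -0.12. It was -0.03 with MMA alone, where that of all genes was -0.07, and 0.02 with FA alone, where that of all genes was -0.05. Because the median of all genes was shifted in MMA_FA libraries, each comparison was also computed with libraries scaled by their median ratio over genes, which brings that median to 0.00. So scaled, the calls were 6 higher and 2 lower with MMA_FA, 4 higher and 3 lower with MMA, and 4 higher and 1 lower with FA, against 29.4% (15.9% higher and 13.5% lower), 15.2% (8.46% and 6.70%) and 9.50% (5.85% and 3.65%) of all genes called. This scaling raises differences from Ctrl, and those of MMA_FA from MMA and FA. Here and below, higher calls were therefore hardly at risk from it, whereas lower calls were. Of the 40 members, those called only as deposited were all lower: 4 with MMA, 2 with FA and 9 with MMA_FA.

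**Figure D2:**
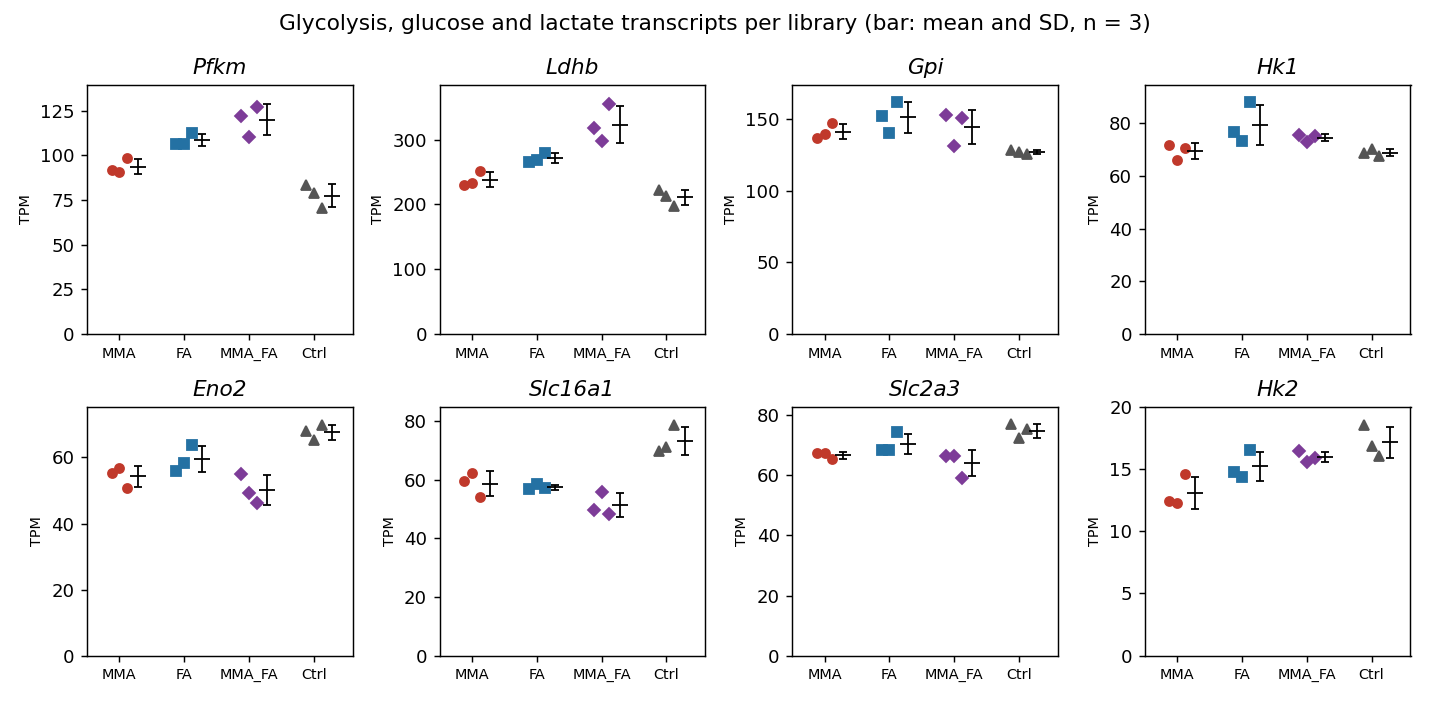
TPM per library (points) with the mean and SD of 3 libraries beside them, for 8 transcripts of the glycolysis group in MMA, FA, MMA_FA and Ctrl libraries; the axes start at 0. The 3 MMA_FA libraries lie above the 3 Ctrl libraries for Pfkm, Ldhb, Gpi and Hk1 and below them for Eno2, Slc16a1 and Slc2a3.

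Of the glucose carriers, Slc2a3 was lower with MMA and with MMA_FA, and the others were not called in any comparison. Slc2a3 (GLUT3), a high-affinity glucose carrier, stood at 67.4, 67.3 and 65.4 TPM in MMA, 68.3, 68.5 and 74.3 TPM in FA, 66.4, 66.5 and 59.0 TPM in MMA_FA, and 77.0, 72.2 and 75.3 TPM in Ctrl libraries. All MMA and all MMA_FA libraries lay below all Ctrl libraries, and the FA libraries overlapped with them. It fell in MMA_FA libraries (log2 difference -0.22, SE 0.05, adjusted p = 0.00592) and in MMA libraries (log2 difference -0.16, SE 0.05, adjusted p = 0.0469). Neither call held after median-ratio scaling (-0.10, adjusted p = 0.205 for MMA_FA and -0.08, adjusted p = 0.331 for MMA). The Slc2a3 call with MMA was lost without any 1 of the 6 libraries (adjusted p from 0.0591 to 0.144). Slc2a1 (GLUT1), the basal carrier of most cells, stood at 6.30, 6.31 and 5.90 TPM in MMA, 5.57, 6.73 and 6.44 TPM in FA, 7.27, 6.07 and 6.39 TPM in MMA_FA, and 5.93, 5.72 and 6.78 TPM in Ctrl libraries. The groups overlapped. Its log2 difference was 0.01 with MMA, 0.02 with FA and 0.08 with MMA_FA (95% interval -0.10 to 0.27). Slc2a4 (GLUT4), the insulin-responsive carrier of muscle and fat, averaged 7.79 ± 1.32, 7.60 ± 0.32 and 8.26 ± 0.49 TPM in MMA, FA and MMA_FA libraries and 8.65 ± 0.71 TPM in Ctrl libraries (SD, n = 3 each).

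Of the hexokinases, which trap glucose in the cell as glucose phosphate, Hk2 was called lower with MMA and Hk1 higher with FA. Hk2, the insulin-regulated hexokinase of muscle, stood at 12.4, 12.3 and 14.6 TPM in MMA, 14.8, 14.4 and 16.5 TPM in FA, 16.4, 15.6 and 15.9 TPM in MMA_FA, and 18.6, 16.8 and 16.1 TPM in Ctrl libraries. All MMA libraries were below all Ctrl libraries, and FA and MMA_FA libraries overlapped with Ctrl libraries. It fell with MMA alone (log2 difference -0.37, SE 0.08, adjusted p = 0.00821). The Hk2 call with MMA held without any 1 of the 6 libraries and after median-ratio scaling (-0.29, adjusted p = 0.0301). With FA the log2 difference was -0.16 (SE 0.08, adjusted p = 0.171) and with MMA_FA -0.09 (SE 0.08, adjusted p = 0.353). Hk1, the housekeeping hexokinase, stood at 71.7, 66.0 and 70.7 TPM in MMA, 76.5, 73.3 and 88.0 TPM in FA, 75.5, 72.9 and 75.2 TPM in MMA_FA, and 68.7, 70.0 and 67.6 TPM in Ctrl libraries. FA and MMA_FA libraries lay above all Ctrl libraries, and MMA libraries overlapped with them. Hk1 rose with FA (log2 difference 0.20, SE 0.06, adjusted p = 0.0493). The Hk1 call with FA was lost without any 1 library other than FA replicate 2 (adjusted p up to 0.155). With MMA_FA it was 0.11 (SE 0.06, adjusted p = 0.148) as deposited and was called higher after median-ratio scaling (0.24, adjusted p = 0.00914). Hk2 made up 15.9%, 16.1% and 17.7% of the hexokinase TPM in MMA, FA and MMA_FA libraries and 19.9% in Ctrl libraries, given as a description with no test.

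Gpi, which interconverts glucose phosphate and fructose phosphate, was higher with FA and with MMA_FA. It stood at 137, 139 and 147 TPM in MMA, 152, 140.0 and 162 TPM in FA, 152, 131 and 151 TPM in MMA_FA, and 128, 127 and 125 TPM in Ctrl libraries. Libraries of all 3 treated groups lay above all Ctrl libraries. Gpi rose with FA (log2 difference 0.25, SE 0.06, adjusted p = 0.0269) and MMA_FA (log2 difference 0.19, SE 0.06, adjusted p = 0.0337). With MMA it was 0.15 (SE 0.06, adjusted p = 0.105), called higher only after median-ratio scaling (0.23, adjusted p = 0.023). The Gpi call with FA was lost without any 1 library other than FA replicate 2 (adjusted p up to 0.0991). The Gpi call with MMA_FA was lost without any 1 library other than MMA_FA replicate 2 (adjusted p up to 0.121).

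Phosphofructokinase commits sugar to glycolysis and is assembled from muscle (Pfkm), liver (Pfkl) and platelet (Pfkp) subunits. The muscle subunit was the most abundant and the only one of the 3 that was called as deposited in any comparison. Pfkm stood at 91.8, 90.6 and 98.3 TPM in MMA, 106, 107 and 112 TPM in FA, 122, 110.4 and 127 TPM in MMA_FA, and 83.2, 78.9 and 70.3 TPM in Ctrl libraries. All treated libraries lay above all Ctrl libraries, with MMA_FA and FA libraries higher than MMA libraries. It rose with MMA (log2 difference 0.27, SE 0.07, adjusted p = 0.0149), with FA (log2 difference 0.48, SE 0.07, adjusted p = 0.00323) and with MMA_FA (log2 difference 0.63, SE 0.07, adjusted p = 6.12e-05). All 3 calls held after median-ratio scaling (log2 differences 0.35, 0.54 and 0.75 in that order), which raises differences from Ctrl and so hardly put them at risk. The Pfkm call with MMA was lost without MMA replicate 3 or Ctrl replicate 3 (adjusted p up to 0.0636). Those with FA and MMA_FA held without any 1 of the 6 libraries. Pfkl averaged 21.4 ± 3.21, 25.4 ± 3.005 and 25.7 ± 2.80 TPM in MMA, FA and MMA_FA libraries and 21.0 ± 0.52 TPM in Ctrl libraries. With MMA_FA it was called higher only after median-ratio scaling (as deposited 0.27 (SE 0.11, adjusted p = 0.0609); scaled 0.40, adjusted p = 0.0159). Pfkp averaged 40.6 ± 1.16, 43.8 ± 4.43 and 43.2 ± 0.37 TPM in MMA, FA and MMA_FA libraries and 42.6 ± 1.21 TPM in Ctrl libraries. It was called under neither scaling. The share of Pfkm in the phosphofructokinase TPM was 60.1 ± 0.90%, 61.1 ± 2.27% and 63.5 ± 0.99% in MMA, FA and MMA_FA libraries and 54.8 ± 2.72% in Ctrl libraries (SD, n = 3 each, no test). Markers of muscle and of other cell types moved in the same libraries. The summed level of the 12 cardiomyocyte markers was 38.4 to 40.7 TPM in MMA, 61.6 to 64.2 TPM in FA, 84.3 to 104 TPM in MMA_FA and 32.2 to 38.2 TPM in Ctrl libraries. Of that list only Tnnt2, the cardiac troponin T that immature skeletal muscle also makes, was called with MMA_FA (log2 difference 2.12, SE 0.10, adjusted p = 2.63e-07). Of the 13 skeletal muscle markers, the 12 with values summed to 127 to 138 TPM in MMA, 134 to 152 TPM in FA, 111 to 131 TPM in MMA_FA and 133 to 148 TPM in Ctrl libraries. The sum hides opposite directions. Myod1 and Tnnt3 averaged 31.7 and 10.5 TPM in MMA_FA and 72.65 and 12.8 TPM in Ctrl libraries. Acta1, Des, Myh2 and Myog averaged 9.25, 4.24, 48.3 and 18.4 TPM in MMA_FA and 3.77, 3.04, 33.2 and 15.8 TPM in Ctrl libraries. Of 6 tested, limma called 0 with MMA (5 at an unadjusted p under 0.05) and 3 higher and 1 lower with each of FA and MMA_FA. After median-ratio scaling it called 2 higher and 0 lower with MMA, 3 and 1 with FA, and 4 and 1 with MMA_FA. These counts and those below stand beside 20.4%, 12.4% and 39.3% of all genes called with MMA, FA and MMA_FA (15.2%, 9.50% and 29.4% after scaling). The 10 fibroblast markers summed to 10544 to 11784 TPM in MMA, 11895 to 13844 TPM in FA, 10777 to 12395 TPM in MMA_FA and 10211 to 10959 TPM in Ctrl libraries. Of 8 tested, limma called 0 higher and 1 lower with MMA, 4 and 0 with FA, and 1 and 0 with MMA_FA (0 and 0, 4 and 0, and 5 and 0 after median-ratio scaling). Krt8, the 1 of 4 epithelial markers at 1 TPM, was called higher with MMA, FA and MMA_FA (log2 differences 0.24, 0.55 and 0.49). The part of these markers in the Pfkm result was not tested.

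Pfkfb3, which makes the sugar phosphate that activates phosphofructokinase, stood at 23.7, 21.4 and 20.2 TPM in MMA, 21.2, 19.4 and 26.1 TPM in FA, 19.9, 18.9 and 16.9 TPM in MMA_FA, and 22.6, 22.5 and 22.7 TPM in Ctrl libraries. MMA_FA libraries lay below all Ctrl libraries, and MMA and FA libraries overlapped with them. It fell with MMA_FA (log2 difference -0.27, SE 0.09, adjusted p = 0.0365). The call did not hold after median-ratio scaling (-0.15, adjusted p = 0.235) and was lost without any 1 library other than MMA_FA replicate 1 (adjusted p up to 0.132).

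Among the enzymes of the middle of glycolysis, Aldoa, the aldolase of muscle and most tissues, was lower with MMA alone and was not called with FA or MMA_FA. It stood at 1060.1, 1014 and 1067 TPM in MMA, 1167, 1099 and 1240.1 TPM in FA, 1202, 1176 and 1156 TPM in MMA_FA, and 1225, 1179.8 and 1174 TPM in Ctrl libraries. MMA libraries lay below all others, and FA and MMA_FA libraries overlapped with Ctrl libraries. Aldoa fell with MMA (log2 difference -0.19, SE 0.04, adjusted p = 0.012), not after median-ratio scaling (-0.11, adjusted p = 0.143). The Aldoa call with MMA was lost without Ctrl replicate 1 (adjusted p up to 0.0535). Its log2 difference was -0.03 with FA and -0.02 with MMA_FA. Pgk1, phosphoglycerate kinase, the step that first returns ATP, stood at 405, 409 and 408 TPM in MMA, 389.8, 377 and 395 TPM in FA, 374, 384 and 378 TPM in MMA_FA, and 394, 407 and 407 TPM in Ctrl libraries. The MMA_FA libraries lay below all Ctrl libraries by a small margin. The difference was called with MMA_FA as deposited (log2 difference -0.09, SE 0.03, adjusted p = 0.0399). Its sign turned after median-ratio scaling (0.04, adjusted p = 0.459). The Pgk1 call with MMA_FA was lost without any 1 library other than Ctrl replicate 1 (adjusted p up to 0.118). Pgam1 averaged 795 ± 15.1, 798 ± 13.2 and 784 ± 5.28 TPM in MMA, FA and MMA_FA libraries and 827 ± 10.2 TPM in Ctrl libraries. It was called under neither scaling. Pgam2, its muscle counterpart, averaged 3.57 ± 0.64, 3.05 ± 0.51 and 3.09 ± 0.74 TPM in MMA, FA and MMA_FA libraries and 2.28 ± 0.60 TPM in Ctrl libraries. It was called higher with MMA only after median-ratio scaling (0.54, adjusted p = 0.0454).

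The 3 enolases differ in tissue: Eno1 is ubiquitous, Eno2 is best known from neurons and Eno3 from muscle. Eno2 stood at 55.4, 56.7 and 50.8 TPM in MMA, 56.0, 58.5 and 63.7 TPM in FA, 55.0, 49.1 and 46.3 TPM in MMA_FA, and 68.0, 65.3 and 69.7 TPM in Ctrl libraries. Libraries of all 3 treated groups lay below all Ctrl libraries, and the means of MMA_FA and MMA libraries were the lowest. It fell with MMA (log2 difference -0.31, SE 0.07, adjusted p = 0.00937) and with MMA_FA (log2 difference -0.43, SE 0.07, adjusted p = 6.33e-04). Both calls held without any 1 library and after median-ratio scaling (-0.23, adjusted p = 0.0307 for MMA and -0.30, adjusted p = 0.00449 for MMA_FA). With FA the log2 difference was -0.19 (SE 0.07, adjusted p = 0.0884). Eno1 averaged 1333 ± 52.7, 1450.3 ± 130.3 and 1392 ± 7.39 TPM in MMA, FA and MMA_FA libraries and 1331 ± 32.4 TPM in Ctrl libraries. With MMA_FA it was called higher only after median-ratio scaling (0.19, adjusted p = 0.0309). Eno3 averaged 23.0 ± 0.76, 24.6 ± 2.35 and 21.6 ± 1.71 TPM in MMA, FA and MMA_FA libraries and 23.5 ± 1.51 TPM in Ctrl libraries. It was called under neither scaling. Eno2 was a minor form, at 3.86 ± 0.35%, 3.89 ± 0.34% and 3.43 ± 0.31% of the enolase TPM in MMA, FA and MMA_FA libraries and 4.76 ± 0.25% in Ctrl libraries (no test).

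At the lactate end, the dehydrogenase subunit Ldhb and the transporter Slc16a1 moved in opposite directions. The lactate dehydrogenase gene Ldha is not analysed here. Ldhb, the subunit that predominates in heart and favours lactate oxidation, stood at 230.1, 233 and 252 TPM in MMA, 265, 269 and 279 TPM in FA, 318, 298 and 355 TPM in MMA_FA, and 222, 212 and 198 TPM in Ctrl libraries. Every treated library lay above every Ctrl library, and the MMA_FA libraries lay above all others. Ldhb rose with FA (log2 difference 0.36, SE 0.06, adjusted p = 0.008) and MMA_FA (log2 difference 0.61, SE 0.06, adjusted p = 5.53e-05), calls that held without any 1 library. With MMA it was 0.18 (SE 0.06, adjusted p = 0.0659), called only after median-ratio scaling (0.26, adjusted p = 0.0191). Slc16a1 (MCT1), which carries lactate and pyruvate with a proton, stood at 59.4, 62.5 and 54.2 TPM in MMA, 56.9, 58.5 and 57.2 TPM in FA, 49.8, 56.0 and 48.5 TPM in MMA_FA, and 69.8, 71.1 and 78.6 TPM in Ctrl libraries. Every treated library lay below every Ctrl library. Slc16a1 fell with MMA (log2 difference -0.31, SE 0.07, adjusted p = 0.0085), FA (log2 difference -0.34, SE 0.07, adjusted p = 0.012) and MMA_FA (log2 difference -0.50, SE 0.07, adjusted p = 2.29e-04). All 3 calls held after median-ratio scaling (log2 differences -0.23, -0.29 and -0.37 in that order). The Slc16a1 call with FA was lost without Ctrl replicate 3 (adjusted p up to 0.0612). Those with MMA and MMA_FA held without any 1 of their libraries.

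The promoters of the 4 glycolysis-group genes called with MMA_FA under every setting are shown because hypoxia-inducible factor, whose core sites are ACGTG and GCGTG, is a textbook activator of glycolytic genes. The sequences are RefSeq's on the rat assembly GRCr8, on the gene's strand 5′ to 3′, from 250 bases before to 50 bases after the annotated start. Capitals mark ACGTG or GCGTG on either strand (CACGT or CACGC where it lies on the other).
Pfkm (chr7:131113849-131114148, plus strand): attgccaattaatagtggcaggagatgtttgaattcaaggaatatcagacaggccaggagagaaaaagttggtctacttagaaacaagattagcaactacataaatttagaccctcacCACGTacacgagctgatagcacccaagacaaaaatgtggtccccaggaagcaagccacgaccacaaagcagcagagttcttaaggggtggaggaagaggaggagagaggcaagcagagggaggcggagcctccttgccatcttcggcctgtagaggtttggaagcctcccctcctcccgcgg
Ldhb (chr4:177177359-177177658, minus strand): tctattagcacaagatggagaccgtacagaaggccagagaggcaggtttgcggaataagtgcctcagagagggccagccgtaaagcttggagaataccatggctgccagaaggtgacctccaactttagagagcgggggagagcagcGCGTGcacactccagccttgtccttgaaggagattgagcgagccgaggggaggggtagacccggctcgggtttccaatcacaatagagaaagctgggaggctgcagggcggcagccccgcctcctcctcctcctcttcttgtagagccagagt
Slc16a1 (chr2:194812410-194812709, plus strand): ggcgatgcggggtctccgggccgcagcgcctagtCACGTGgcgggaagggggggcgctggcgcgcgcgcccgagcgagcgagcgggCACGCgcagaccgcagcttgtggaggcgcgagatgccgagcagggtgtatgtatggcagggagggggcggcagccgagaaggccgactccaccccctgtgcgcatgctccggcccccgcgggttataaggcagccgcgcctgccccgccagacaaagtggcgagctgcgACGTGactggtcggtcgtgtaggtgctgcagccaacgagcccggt
Eno2 (chr4:159267171-159267470, minus strand): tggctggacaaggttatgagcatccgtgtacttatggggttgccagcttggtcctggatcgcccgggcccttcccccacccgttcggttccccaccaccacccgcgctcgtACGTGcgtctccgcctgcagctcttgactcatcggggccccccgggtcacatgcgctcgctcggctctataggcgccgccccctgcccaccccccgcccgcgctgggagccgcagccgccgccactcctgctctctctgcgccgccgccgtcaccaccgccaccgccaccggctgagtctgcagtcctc
The window held 1 such core for Pfkm, 1 for Ldhb, 4 for Slc16a1 and 1 for Eno2, where a CACGTG counts as 2 overlapping matches of ACGTG. Both genes that rose and both that fell held at least 1 core. Of the 40 members, 32 matched exactly 1 promoter of the table. Either core was present in 10 of 13 glycolysis promoters (76.9%) and 10 of 19 pyruvate and TCA promoters (52.6%), against 41.6% of all 33469 promoters. The GC content of the windows differed too, at 61.9% on average for the glycolysis promoters and 61.1% for the pyruvate and TCA promoters, against 52.8% for all promoters. A match describes letters in a window, and binding was not measured.

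In the pyruvate and TCA group, the NADP-dependent isocitrate dehydrogenase Idh2 and the cytosolic malate dehydrogenase Mdh1 were higher with MMA and FA together, and Ogdh, the first subunit of the alpha-ketoglutarate dehydrogenase complex, was lower. The shared subunit Dld, Dlat of the pyruvate dehydrogenase complex, Cs, Dlst, Suclg1 and Sucla2 were also called lower as deposited, with differences that shrank or turned sign after median-ratio scaling. Against Ctrl, 9 of 21 members were called in MMA_FA libraries, 2 higher and 7 lower, where 39.3% of all genes were called (6.67% higher and 32.6% lower). With MMA alone 5 of 21 were called, 3 higher and 2 lower, where 20.4% of all genes were called. With FA alone 4 of 21 were called, 2 higher and 2 lower, where 12.4% of all genes were called. After median-ratio scaling the calls were 10 higher and 1 lower with MMA_FA, 6 higher and 0 lower with MMA, and 4 higher and 0 lower with FA. Of all genes, 15.9% were then called higher and 13.5% lower with MMA_FA, 8.46% and 6.70% with MMA, and 5.85% and 3.65% with FA. The median log2 difference of the 21 members was 0.01 with MMA_FA, 0.01 with MMA and -0.02 with FA as deposited, beside the all-gene medians given above. Without overlap between the groups, 2 of the 21 lay above Ctrl and 10 below it in MMA_FA libraries, where 10.4% of all genes lay above and 43.4% below.

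**Figure D3:**
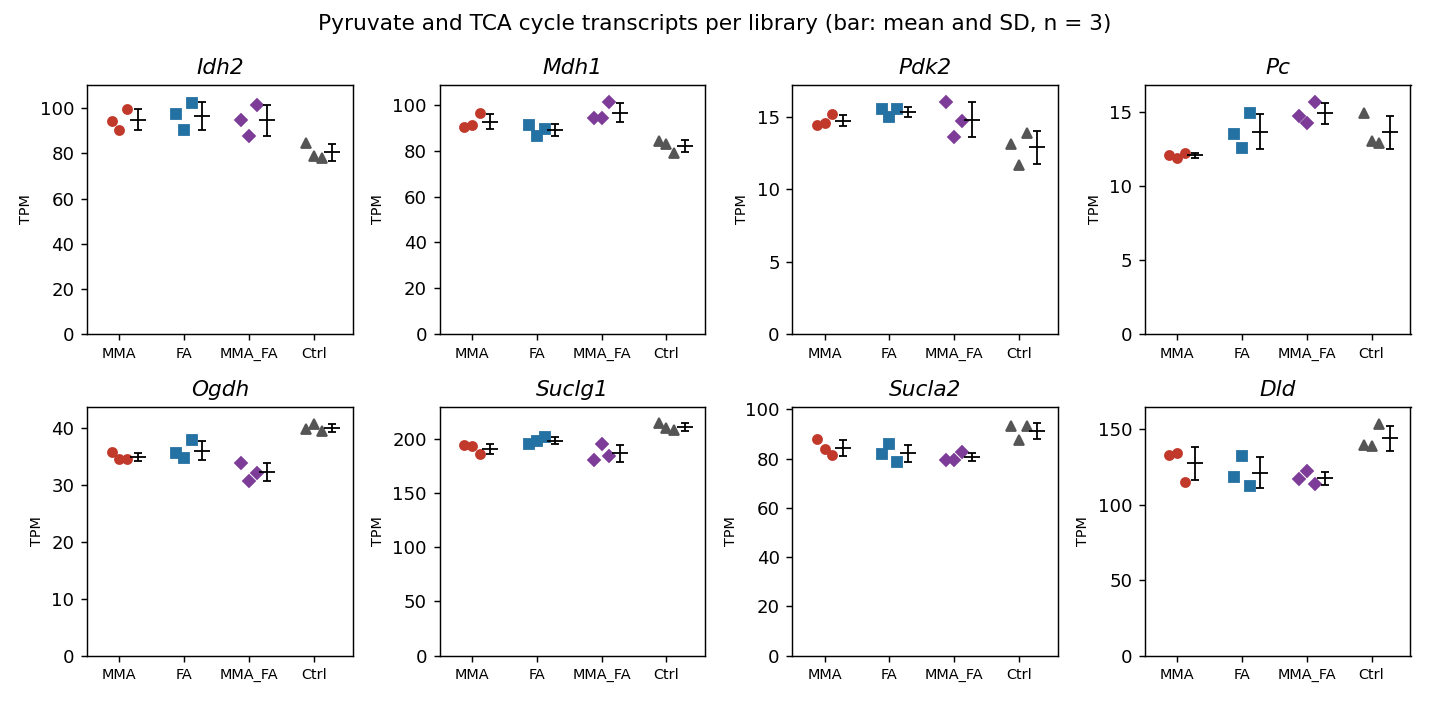
TPM per library (points) with the mean and SD of 3 libraries beside them, for 8 transcripts of the pyruvate and TCA group in MMA, FA, MMA_FA and Ctrl libraries; the axes start at 0. The 3 MMA_FA libraries lie above the 3 Ctrl libraries for Idh2 and Mdh1 and below them for Ogdh, Suclg1, Sucla2 and Dld.

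The pyruvate dehydrogenase complex turns pyruvate into acetyl-CoA, and its kinases switch it off by phosphorylation. The kinase Pdk2, widely expressed, stood at 14.4, 14.6 and 15.2 TPM in MMA, 15.6, 14.97 and 15.6 TPM in FA, 16.0, 13.6 and 14.8 TPM in MMA_FA, and 13.1, 11.7 and 13.9 TPM in Ctrl libraries. MMA and FA libraries lay above all Ctrl libraries, and MMA_FA libraries overlapped with them. Pdk2 rose with FA (log2 difference 0.24, SE 0.07, adjusted p = 0.0423). It was 0.18 (SE 0.07, adjusted p = 0.0806) with MMA and 0.19 (SE 0.07, adjusted p = 0.0503) with MMA_FA. It was called higher in all 3 after median-ratio scaling (0.26, 0.29 and 0.31 for MMA, FA and MMA_FA). The Pdk2 call with FA was lost without any 1 library other than FA replicate 2 (adjusted p up to 0.136). Pdk1, a kinase induced by hypoxia in many cells, stood at 16.8, 18.3 and 15.6 TPM in MMA, 15.5, 19.0 and 15.6 TPM in FA, 18.0, 16.9 and 17.3 TPM in MMA_FA, and 15.6, 15.6 and 17.1 TPM in Ctrl libraries, and all groups overlapped. Its log2 difference was 0.11 (SE 0.08, adjusted p = 0.312) with MMA_FA, called higher only after median-ratio scaling (0.23, adjusted p = 0.0425). The ratio of Pdk1 to Pdk2 TPM was 1.15, 1.09 and 1.18 in MMA, FA and MMA_FA libraries and 1.25 in Ctrl libraries (no test).

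Within the complex, Dlat and Dld were called lower with MMA_FA as deposited, and Pdha1 and Pdhb were not called. Pdha1, the catalytic alpha subunit that the kinases act on, stood at 159, 160.1 and 148 TPM in MMA, 144, 158 and 133 TPM in FA, 146, 156 and 156 TPM in MMA_FA, and 145, 149.9 and 151 TPM in Ctrl libraries, and no group stood apart. Its log2 difference was 0.07, -0.04 and 0.04 with MMA, FA and MMA_FA (95% interval with MMA_FA -0.09 to 0.16), and it was called under neither scaling. Its partner Pdhb averaged 55.0 ± 1.57, 49.8 ± 0.64 and 54.2 ± 3.82 TPM in MMA, FA and MMA_FA libraries and 53.7 ± 0.74 TPM in Ctrl libraries. It was called higher with MMA_FA only after median-ratio scaling (0.14, adjusted p = 0.0283). Dlat, which transfers the acetyl group, stood at 29.5, 31.1 and 28.9 TPM in MMA, 30.6, 32.5 and 30.4 TPM in FA, 28.5, 27.7 and 30.8 TPM in MMA_FA, and 32.4, 31.6 and 35.2 TPM in Ctrl libraries. MMA and MMA_FA libraries lay below all Ctrl libraries, and FA libraries overlapped with them. Dlat fell with MMA_FA (log2 difference -0.18, SE 0.06, adjusted p = 0.022), not after median-ratio scaling (-0.06, adjusted p = 0.421). The Dlat call with MMA_FA was lost without MMA_FA replicate 1, MMA_FA replicate 2 or Ctrl replicate 3 (adjusted p up to 0.1). Dld, the dehydrogenase subunit shared by the pyruvate and alpha-ketoglutarate complexes, stood at 133, 134 and 115 TPM in MMA, 118, 133 and 113 TPM in FA, 117, 122 and 114 TPM in MMA_FA, and 139, 139 and 153 TPM in Ctrl libraries. All treated libraries lay below all Ctrl libraries. It fell with FA (log2 difference -0.25, SE 0.07, adjusted p = 0.0412) and MMA_FA (log2 difference -0.29, SE 0.07, adjusted p = 0.00771), and with MMA the log2 difference was -0.18 (SE 0.07, adjusted p = 0.0971). Neither call held after median-ratio scaling (-0.20, adjusted p = 0.0949 for FA and -0.16, adjusted p = 0.11 for MMA_FA). The Dld call with FA was lost without any 1 library other than FA replicate 2 (adjusted p up to 0.162).

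At the entry into the cycle, Cs was called with MMA_FA and Pc in no comparison with Ctrl. Pc, pyruvate carboxylase, which refills the cycle with oxaloacetate, stood at 12.1, 11.9 and 12.2 TPM in MMA, 13.5, 12.6 and 14.9 TPM in FA, 14.7, 14.2 and 15.7 TPM in MMA_FA, and 14.9, 13.1 and 12.9 TPM in Ctrl libraries. MMA libraries lay below all Ctrl libraries, and FA and MMA_FA libraries overlapped with them. No difference from Ctrl was called as deposited (-0.16 (SE 0.07, adjusted p = 0.129) with MMA and 0.12 (SE 0.07, adjusted p = 0.186) with MMA_FA), and with MMA_FA it was called higher after median-ratio scaling (0.24, adjusted p = 0.0185). Cs, citrate synthase, stood at 177, 171 and 169 TPM in MMA, 166, 173 and 168 TPM in FA, 165, 164 and 165 TPM in MMA_FA, and 173, 176 and 179 TPM in Ctrl libraries. MMA_FA libraries lay just below all Ctrl libraries. Cs was called lower with MMA_FA as deposited (log2 difference -0.09, SE 0.03, adjusted p = 0.0391). Its sign turned after median-ratio scaling (0.03, adjusted p = 0.487). The Cs call with MMA_FA was lost without any 1 of the 6 libraries (adjusted p from 0.0525 to 0.124).

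Of the isocitrate dehydrogenases, the NADP-dependent Idh1 (cytosol) was called higher with MMA and Idh2 (mitochondria) with all 3 treatments, and none of the 3 NAD-dependent Idh3 subunits was called as deposited. Idh2 stood at 94.5, 90.6 and 99.8 TPM in MMA, 97.3, 90.2 and 102 TPM in FA, 94.9, 87.7 and 102 TPM in MMA_FA, and 84.8, 79.0 and 77.9 TPM in Ctrl libraries. All treated libraries lay above all Ctrl libraries. Idh2 rose with MMA (log2 difference 0.23, SE 0.06, adjusted p = 0.0225), FA (log2 difference 0.26, SE 0.06, adjusted p = 0.0244) and MMA_FA (log2 difference 0.23, SE 0.06, adjusted p = 0.013). All 3 calls held after median-ratio scaling (0.32, 0.31 and 0.36). The Idh2 call with MMA was lost without MMA replicate 1, MMA replicate 3, Ctrl replicate 2 or Ctrl replicate 3 (adjusted p up to 0.0917). The Idh2 call with FA was lost without FA replicate 1, FA replicate 3, Ctrl replicate 2 or Ctrl replicate 3 (adjusted p up to 0.101). The Idh2 call with MMA_FA was lost without MMA_FA replicate 3 or Ctrl replicate 3 (adjusted p up to 0.0561). Idh1 stood at 57.4, 57.1 and 57.7 TPM in MMA, 51.1, 55.4 and 49.2 TPM in FA, 52.1, 54.9 and 55.7 TPM in MMA_FA, and 51.6, 48.8 and 52.8 TPM in Ctrl libraries. MMA libraries lay above all Ctrl libraries, and FA and MMA_FA libraries overlapped with them. Idh1 rose with MMA (log2 difference 0.17, SE 0.05, adjusted p = 0.0362), a call that held after median-ratio scaling (0.25, adjusted p = 0.0112). The Idh1 call with MMA was lost without any 1 of the 6 libraries (adjusted p from 0.0543 to 0.124). With MMA_FA it was 0.08 (SE 0.05, adjusted p = 0.197) as deposited and was called after median-ratio scaling (0.21, adjusted p = 0.0104). Of the NAD-dependent subunits, Idh3a averaged 55.1 ± 1.35 TPM in MMA_FA and 59.4 ± 1.48 TPM in Ctrl libraries. Idh3b averaged 50.3 ± 2.53 TPM in MMA_FA and 49.6 ± 2.40 TPM in Ctrl libraries, and Idh3g averaged 90.7 ± 2.71 TPM in MMA_FA and 96.1 ± 1.90 TPM in Ctrl libraries. Idh3b was called higher only after median-ratio scaling (0.15, adjusted p = 0.0482). Idh3a lay below all Ctrl libraries in each treated group without being called (adjusted p = 0.285, adjusted p = 0.0518 and adjusted p = 0.0529 for MMA, FA and MMA_FA).

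Around succinyl-CoA, where propionate breakdown enters, Ogdh, Dlst, Suclg1 and Sucla2 were called lower with MMA_FA as deposited, and Suclg2 was not. Ogdh stood at 35.8, 34.6 and 34.5 TPM in MMA, 35.6, 34.6 and 37.8 TPM in FA, 33.9, 30.7 and 32.1 TPM in MMA_FA, and 39.8, 40.8 and 39.4 TPM in Ctrl libraries. All treated libraries lay below all Ctrl libraries, the MMA_FA libraries lowest. Ogdh fell with MMA (log2 difference -0.19, SE 0.05, adjusted p = 0.0176) and MMA_FA (log2 difference -0.30, SE 0.05, adjusted p = 5.93e-04). The Ogdh call with MMA_FA held after median-ratio scaling (-0.18, adjusted p = 0.00909) and without any 1 library. That with MMA did not hold after scaling (-0.11, adjusted p = 0.111) and was lost without MMA replicate 2, MMA replicate 3, Ctrl replicate 1 or Ctrl replicate 2 (adjusted p up to 0.0609). Dlst, the transferase of the same complex, stood at 91.5, 93.2 and 90.3 TPM in MMA, 92.9, 90.6 and 96.8 TPM in FA, 89.7, 88.2 and 85.4 TPM in MMA_FA, and 95.3, 94.6 and 94.6 TPM in Ctrl libraries. MMA_FA libraries lay below all libraries of the other groups. It was called lower with MMA_FA as deposited (log2 difference -0.11, SE 0.04, adjusted p = 0.032). Its sign turned after median-ratio scaling (0.02, adjusted p = 0.79). The Dlst call with MMA_FA was lost without any 1 library other than MMA_FA replicate 1 (adjusted p up to 0.105).

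Succinyl-CoA ligase joins the alpha subunit Suclg1 to an ATP-forming (Sucla2) or a GTP-forming (Suclg2) beta subunit. Suclg1 stood at 194, 193 and 186 TPM in MMA, 195, 198 and 202 TPM in FA, 180.3, 196 and 184 TPM in MMA_FA, and 215, 209.8 and 208 TPM in Ctrl libraries. All treated libraries lay below all Ctrl libraries. It fell with MMA (log2 difference -0.14, SE 0.04, adjusted p = 0.0215) and MMA_FA (log2 difference -0.18, SE 0.04, adjusted p = 0.00365). Neither call held after median-ratio scaling (-0.06, adjusted p = 0.357 for MMA and -0.05, adjusted p = 0.423 for MMA_FA). The Suclg1 call with MMA was lost without MMA replicate 3, Ctrl replicate 1, Ctrl replicate 2 or Ctrl replicate 3 (adjusted p up to 0.0841). Sucla2 stood at 87.8, 83.9 and 81.3 TPM in MMA, 81.7, 85.7 and 78.8 TPM in FA, 79.6, 79.5 and 82.5 TPM in MMA_FA, and 93.2, 87.6 and 93.2 TPM in Ctrl libraries. FA and MMA_FA libraries lay below all Ctrl libraries, and MMA libraries overlapped with them. It fell with FA (log2 difference -0.15, SE 0.05, adjusted p = 0.0467) and MMA_FA (log2 difference -0.18, SE 0.05, adjusted p = 0.00854). Neither call held after median-ratio scaling (-0.10, adjusted p = 0.143 for FA and -0.05, adjusted p = 0.388 for MMA_FA). The Sucla2 call with FA was lost without any 1 library other than FA replicate 2 (adjusted p up to 0.159). Suclg2 averaged 91.2 ± 3.07, 93.6 ± 1.29 and 86.3 ± 4.70 TPM in MMA, FA and MMA_FA libraries and 85.7 ± 4.12 TPM in Ctrl libraries. It was called higher in all 3 only after median-ratio scaling (0.17, 0.18 and 0.14).

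At the end of the cycle, Fh, which hydrates fumarate to malate, stood at 116, 109 and 119 TPM in MMA, 106, 104 and 100.3 TPM in FA, 102, 105 and 105 TPM in MMA_FA, and 111, 107 and 108 TPM in Ctrl libraries. FA and MMA_FA libraries lay below all Ctrl libraries, and MMA libraries overlapped with them. Fh was called in none of the comparisons with Ctrl as deposited (0.08 (SE 0.04, adjusted p = 0.2) with MMA and -0.06 (SE 0.04, adjusted p = 0.246) with MMA_FA), and it was called higher with MMA after median-ratio scaling (0.16, adjusted p = 0.0387). Mdh1, the cytosolic malate dehydrogenase of the malate-aspartate shuttle, stood at 90.6, 91.2 and 96.5 TPM in MMA, 91.4, 86.4 and 89.4 TPM in FA, 94.2, 94.3 and 102 TPM in MMA_FA, and 84.2, 83.1 and 79.3 TPM in Ctrl libraries. All treated libraries lay above all Ctrl libraries. Mdh1 rose with MMA (log2 difference 0.17, SE 0.04, adjusted p = 0.0196) and MMA_FA (log2 difference 0.23, SE 0.04, adjusted p = 0.002). Both calls held after median-ratio scaling (0.25 and 0.36), when FA was called too (0.17, adjusted p = 0.0479). The Mdh1 call with MMA was lost without MMA replicate 3 or Ctrl replicate 3 (adjusted p up to 0.0802). The Mdh1 call with MMA_FA held without any 1 of the 6 libraries. Mdh2, its mitochondrial counterpart and the most abundant TCA transcript, stood at 351, 362 and 364 TPM in MMA, 356, 349.5 and 373 TPM in FA, 369, 373 and 358 TPM in MMA_FA, and 364, 356 and 351 TPM in Ctrl libraries, with overlapping groups. Its log2 difference was 0.01, 0.01 and 0.04 with MMA, FA and MMA_FA (95% interval with MMA_FA -0.04 to 0.12), and with MMA_FA it was called higher only after median-ratio scaling (0.17, adjusted p = 0.0109).

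For MMA_FA against Ctrl, 8 of the 40 members were called under both scalings, 9 only as deposited and 11 only after median-ratio scaling, where the shares of all genes were 20.2%, 19.1% and 9.21%. Those called under both, each in 1 direction, were Pfkm, Ldhb and Gpi (higher) and Eno2 and Slc16a1 (lower) of the glycolysis group, and Idh2 and Mdh1 (higher) and Ogdh (lower) of the pyruvate and TCA group. For the higher ones the scaling was hardly a test, because it raises differences from Ctrl. In all, 17 of the 40 members were called as deposited, 5 higher and 12 lower, where 39.3% of all genes were called (6.67% higher and 32.6% lower). After median-ratio scaling 19 were called, 16 higher and 3 lower, where 29.4% of all genes were (15.9% and 13.5%). The 9 members called lower as deposited and not after scaling lay between -0.29 (Dld) and -0.09 (Pgk1) as deposited, beside an all-gene median of -0.12. Relative to that median, 3 of them (Pgk1, Cs and Dlst) were not below other genes, and their scaled differences were 0.04, 0.03 and 0.02. Which scaling is nearer to RNA per cell was not measured, and no spike-in or cell count was used here.

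**Figure D4:**
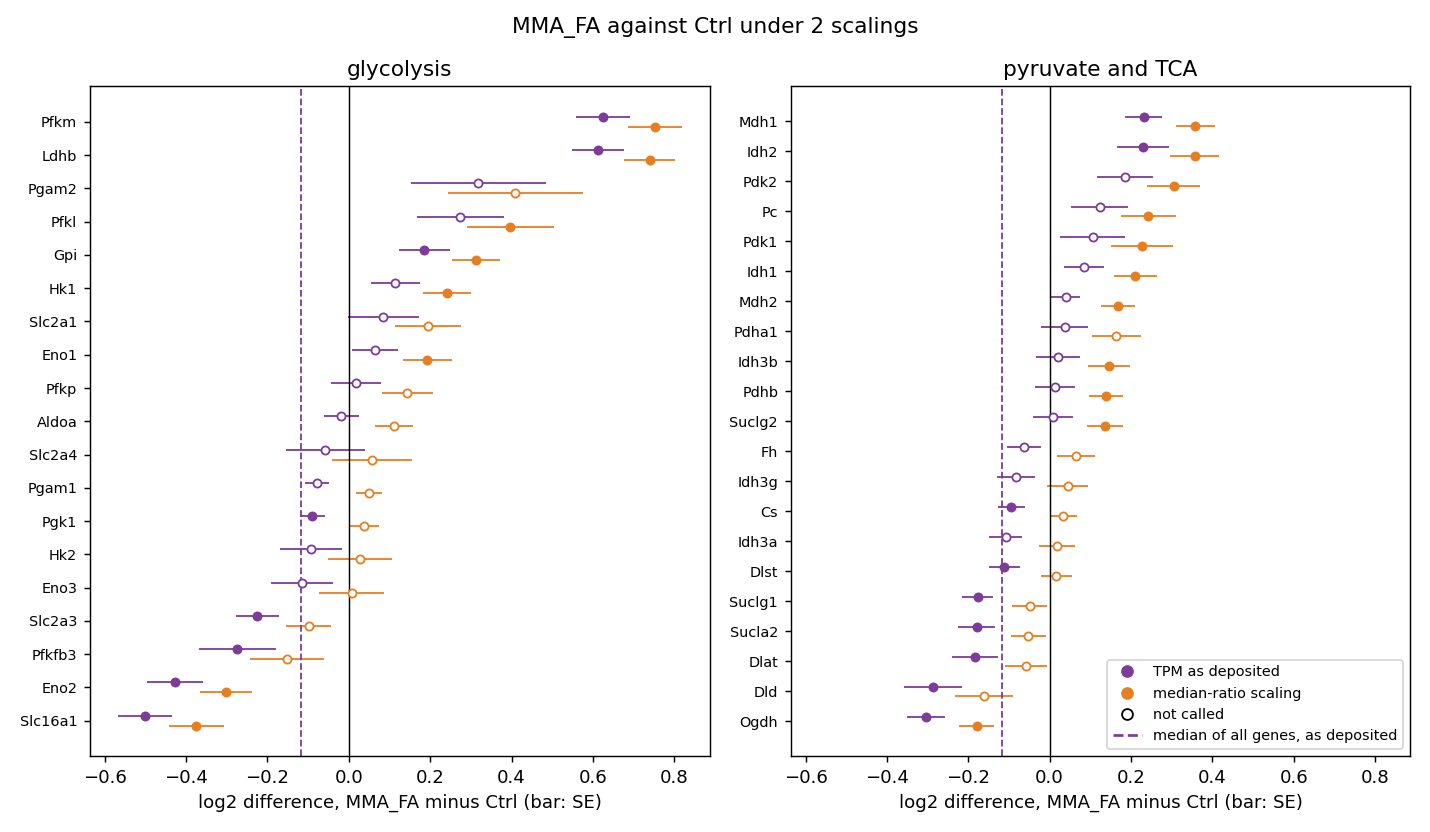
Log2 difference of each member, MMA_FA minus Ctrl, with its standard error, from TPM as deposited (purple) and after median-ratio scaling (orange); filled points are called and the dashed line marks the median of all genes as deposited, at -0.12. Pfkm and Ldhb lie farthest to the right and Slc16a1 and Eno2 farthest to the left of the glycolysis panel under both scalings.

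Whether the combination differed from each single treatment was tested directly. Against MMA alone, 5 of 19 glycolysis members were called in MMA_FA libraries, 4 higher and 1 lower, and 2 of 21 pyruvate and TCA members, 1 higher and 1 lower, where 13.7% of all genes were called (4.19% higher and 9.53% lower). Pfkm (log2 difference 0.35, SE 0.07, adjusted p = 0.0042), Ldhb (log2 difference 0.44, SE 0.06, adjusted p = 9.22e-04), Hk2 (log2 difference 0.27, SE 0.08, adjusted p = 0.0343) and Aldoa (log2 difference 0.17, SE 0.04, adjusted p = 0.0226) were higher, and their MMA_FA libraries lay above all MMA libraries. The same held for Pc (log2 difference 0.28, SE 0.07, adjusted p = 0.0212), whereas Pgk1 (log2 difference -0.11, SE 0.03, adjusted p = 0.0446) and Fh (log2 difference -0.14, SE 0.04, adjusted p = 0.042) were lower. The 5 higher calls held after median-ratio scaling, and the 2 lower ones did not (-0.06, adjusted p = 0.328 for Pgk1 and -0.09, adjusted p = 0.211 for Fh), where 12.6% of all genes were called. Pfkm and Ldhb held without any 1 library. The Hk2 call with MMA_FA against MMA was lost without any 1 library other than MMA replicate 3 (adjusted p up to 0.14). The Aldoa call with MMA_FA against MMA was lost without MMA replicate 1, MMA replicate 2, MMA_FA replicate 1 or MMA_FA replicate 2 (adjusted p up to 0.0998). The Pc call with MMA_FA against MMA was lost without MMA replicate 1, MMA replicate 2, MMA_FA replicate 1 or MMA_FA replicate 3 (adjusted p up to 0.078). The Pgk1 call with MMA_FA against MMA was lost without any 1 of the 6 libraries (adjusted p from 0.0684 to 0.13). The Fh call with MMA_FA against MMA was lost without any 1 library other than MMA replicate 2 (adjusted p up to 0.143).

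Against FA alone, 2 of 19 glycolysis members were called in MMA_FA libraries, where 10.5% of all genes were called (1.60% higher and 8.90% lower). Ldhb was higher (log2 difference 0.25, SE 0.06, adjusted p = 0.0304) and Eno2 lower (log2 difference -0.24, SE 0.07, adjusted p = 0.0434). In both cases the MMA_FA libraries did not overlap with the FA libraries. Leaving out 1 library gave 0 to 5 glycolysis and 0 to 1 pyruvate and TCA members called against FA, the highest counts without FA replicate 2. The shares of all genes called in those fits are not given here. After median-ratio scaling Ldhb held (0.33, adjusted p = 0.0144) and Eno2 did not (-0.17, adjusted p = 0.141). The Ldhb call with MMA_FA against FA was lost without FA replicate 1, FA replicate 3, MMA_FA replicate 1 or MMA_FA replicate 3 (adjusted p up to 0.0932). The Eno2 call with MMA_FA against FA was lost without FA replicate 1, FA replicate 3, MMA_FA replicate 2 or MMA_FA replicate 3 (adjusted p up to 0.135). Of the pyruvate and TCA members limma called 0 of 21 as deposited, with 6 at an unadjusted p under 0.05, where 29.3% of all genes had one. After median-ratio scaling, where 5.94% of all genes were called, it called 2, Pdhb (0.19, adjusted p = 0.0237) and Mdh1 (0.19, adjusted p = 0.0364), both higher. Pfkm did not differ past the threshold between MMA_FA and FA (log2 difference 0.14, SE 0.07, adjusted p = 0.178, 95% interval 0.00 to 0.29). All 3 treated groups are set against the same Ctrl libraries, so their differences from Ctrl share those libraries' values and are given side by side only. Pfkm was 0.27, 0.48 and 0.63, Ldhb 0.18, 0.36 and 0.61, Slc16a1 -0.31, -0.34 and -0.50, and Ogdh -0.19, -0.15 and -0.30 on the log2 scale with MMA, FA and MMA_FA.

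**Figure D5:**
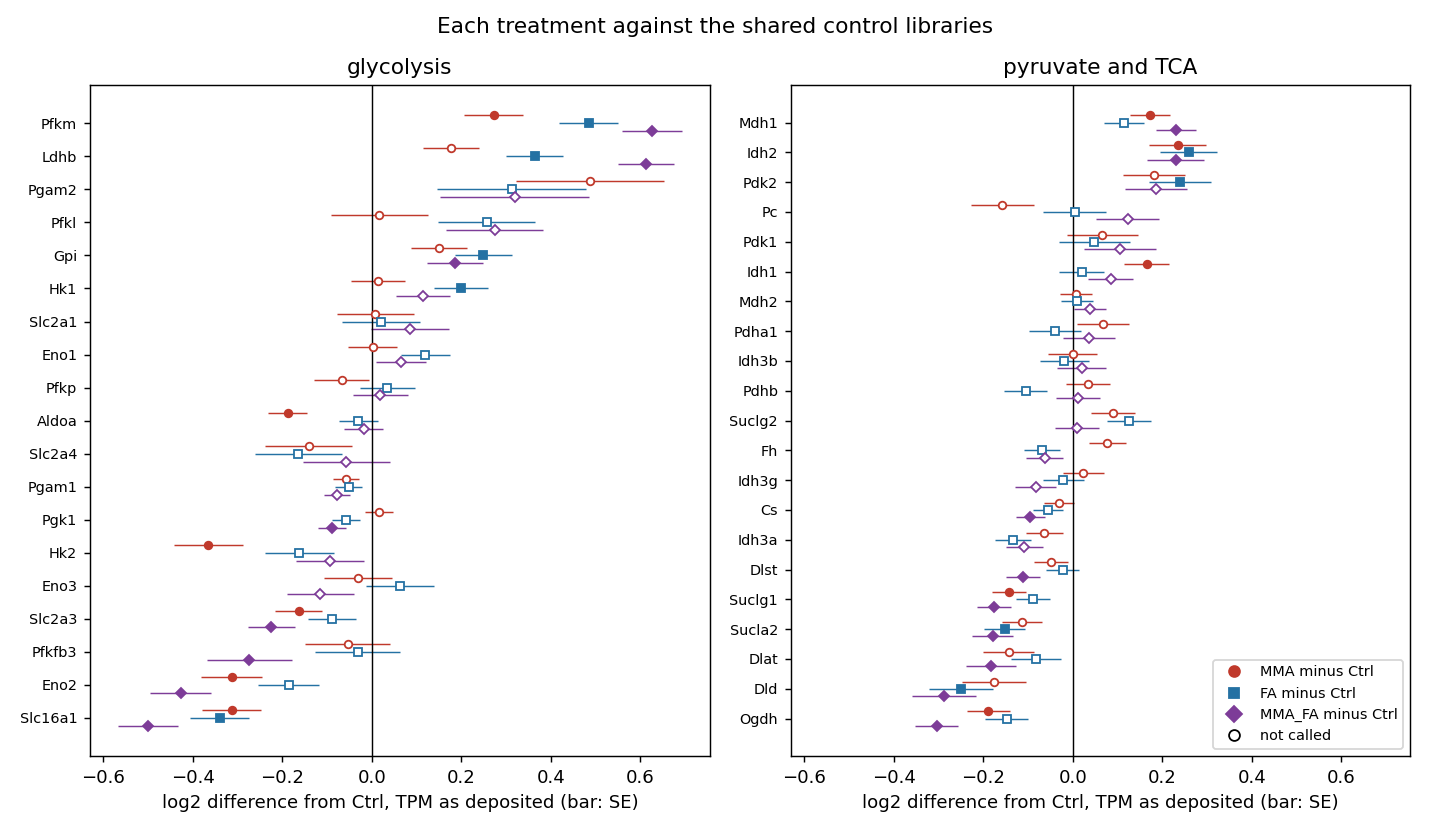
Log2 difference of each member from the same 3 Ctrl libraries, with its standard error, for MMA (circles), FA (squares) and MMA_FA (diamonds), from TPM as deposited; filled points are called. Pfkm and Ldhb lie farther right with MMA_FA than with MMA, and Hk2 and Aldoa lie farther left with MMA than with the other treatments.

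The study's 2 by 2 layout also asks whether MMA acted differently with and without FA, tested as an interaction, the difference between MMA_FA and FA minus the difference between MMA and Ctrl. In limma no member was called: 0 of 19 glycolysis members, with 3 at an unadjusted p under 0.05, and 0 of 21 pyruvate and TCA members, with 4, where 2.41% of all genes were called and 17.6% had an unadjusted p under 0.05. Hk2 had the smallest p, with an interaction of 0.43 on the log2 scale (SE 0.11, adjusted p = 0.0574). Its log2 difference was -0.37 with MMA against Ctrl and 0.07 with MMA_FA against FA. Aldoa followed with 0.20 (adjusted p = 0.114), and Suclg2 (-0.21), Idh2 (-0.26) and Pc (0.28) had adjusted p = 0.143, 0.147 and 0.18. An F test across the 4 groups called 10 of 19 glycolysis members and 8 of 21 pyruvate and TCA members, where 41.0% of all genes were called, and 9 and 10 after median-ratio scaling, where 32.2% were.

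Around glycolysis, 3 further lists of genes were counted against Ctrl (values in parentheses are log2 differences, as deposited unless said to be scaled). Of all genes, 3.85% were called higher and 16.5% lower with MMA, 3.67% and 8.70% with FA, and 6.67% and 32.6% with MMA_FA (8.46% and 6.70%, 5.85% and 3.65%, and 15.9% and 13.5% after median-ratio scaling). Of 11 other tested genes of sugar and lactate handling, 1 rose and 1 fell with MMA, 0 rose and 1 fell with FA, and 2 rose and 2 fell with MMA_FA (1 and 0, 1 and 1, and 3 and 0 after median-ratio scaling). Bpgm, which makes bisphosphoglycerate from a glycolytic intermediate, rose with MMA (0.23, adjusted p = 0.00492) and MMA_FA (0.20, adjusted p = 0.00325). Tigar, a phosphatase that lowers the activator of phosphofructokinase, fell with all 3 treatments as deposited (-0.15, -0.23 and -0.18 with MMA, FA and MMA_FA). Of 7 pentose phosphate genes, 0 rose and 2 fell with MMA, 0 rose and 1 fell with FA, and 1 rose and 3 fell with MMA_FA (1 and 1, 0 and 0, and 1 and 1 after median-ratio scaling). Taldo1, transaldolase, rose with MMA_FA (0.21, adjusted p = 0.00371). Of 10 tested glycogen genes, 0 rose and 3 fell with MMA, 0 rose and 1 fell with FA, and 0 rose and 3 fell with MMA_FA (1 and 1, 0 and 0, and 1 and 2 after median-ratio scaling). Gys1, glycogen synthase, fell with MMA (-0.25, adjusted p = 0.0133) and MMA_FA (-0.33, adjusted p = 0.00125). After scaling, the calls of Tigar with MMA and MMA_FA and of Gys1 with MMA did not hold (-0.07, -0.05 and -0.17).

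The same shares, with 16.5%, 8.70% and 32.6% of all genes called lower with MMA, FA and MMA_FA as deposited, stand beside the lists around the TCA cycle. Of 19 other tested genes of pyruvate and the cycle, 2 rose and 5 fell with MMA, 0 rose and 5 fell with FA, and 1 rose and 8 fell with MMA_FA (3 and 0, 1 and 0, and 4 and 2 after median-ratio scaling). Sdha, the flavoprotein of succinate dehydrogenase, rose with MMA_FA (0.14, adjusted p = 0.0155), whereas its assembly factor Sdhaf1 fell with MMA (-0.20, adjusted p = 0.00812), FA (-0.16, adjusted p = 0.0307) and MMA_FA (-0.35, adjusted p = 1.38e-04). Pdk3, another pyruvate dehydrogenase kinase, fell with FA (-0.22, adjusted p = 0.0401) and MMA_FA (-0.30, adjusted p = 0.00276), the opposite sign to Pdk2. Of 15 tested genes of the shuttles and of anaplerosis, 0 rose and 2 fell with MMA, 0 rose and 0 fell with FA, and 0 rose and 6 fell with MMA_FA (3 and 0, 0 and 0, and 2 and 1 after median-ratio scaling). With FA limma called 0 of these 15 genes, with 3 at an unadjusted p under 0.05. The calls of Sdhaf1 with MMA and FA and of Pdk3 with FA did not hold after scaling (-0.12, -0.11 and -0.17).

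Among regulators, counts are again to be read against 20.4%, 12.4% and 39.3% of all genes called with MMA, FA and MMA_FA (32.6% lower with MMA_FA). Of 15 tested genes of the hypoxia-inducible factor pathway outside glycolysis, 1 rose and 5 fell with MMA, 1 rose and 4 fell with FA, and 4 rose and 9 fell with MMA_FA (1 and 1, 2 and 0, and 4 and 5 after median-ratio scaling). With MMA_FA, Hif1a itself, chosen after its values were seen (-0.33, adjusted p = 0.0039), and the target genes Vegfa, a growth factor for vessels (-0.47, adjusted p = 3.55e-04), and P4ha1, a collagen prolyl hydroxylase (-0.40, adjusted p = 1.54e-04), fell. Adm, a vasodilator peptide (0.28, adjusted p = 0.017), and Ankrd37 (0.59, adjusted p = 0.0191) rose, so members of this list moved in both directions. Of 13 tested regulators of glycolytic and mitochondrial genes, 2 rose and 3 fell with MMA, 1 rose and 1 fell with FA, and 1 rose and 6 fell with MMA_FA (2 and 3, 1 and 0, and 1 and 1 after median-ratio scaling). Mycn, a growth-promoting transcription factor, rose with MMA (0.36, adjusted p = 0.00715), FA (0.40, adjusted p = 0.00954) and MMA_FA (0.57, adjusted p = 1.74e-04). Txnip, which restrains glucose uptake, fell with MMA_FA against Ctrl (-0.36, adjusted p = 9.44e-04), MMA (-0.47, adjusted p = 5.33e-04) and FA (-0.48, adjusted p = 0.00243). Mlx and its partner Mlxip, a sensor of sugar phosphates, fell with MMA (-0.32, adjusted p = 0.00399 for Mlx and -0.39, adjusted p = 0.00375 for Mlxip).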

How the data were processed

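RNA of 12 libraries of H9c2 cells was measured, 3 in each of the groups MMA, FA, MMA_FA and Ctrl, grouped by their labels. Per the labels' protocols, total RNA was extracted with TRIzol and made into stranded mRNA libraries. Per the submitters' processing notes, reads went through fastp and HISAT2 with the rat build mRatBN7.2. Their versions and settings are not stated in what was used here. The authors deposited TPM for each gene, 1 column per library. No read counts were used, so depth and counting error are unknown and the error is the spread between libraries.

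Of 30562 genes, the 12263 averaging 1 TPM or more entered a limma fit (version 3.58.1, in R 4.3.3) of log2(TPM + 1). It had a mean for each group and a trend of variance on level (8 residual and 4.32 prior degrees of freedom). The pseudocount of 1 understates changes of low genes. Contrasts were each treatment against Ctrl, MMA_FA against MMA and against FA, and the interaction, with an F test over the 4 groups; p-values were adjusted by Benjamini-Hochberg over all genes tested. A permutation of 3 against 3 libraries cannot give a p below 0.1, so none was used. For median-ratio scaling, a library's values were divided by the median, over genes above 0 in all libraries, of their ratios to the gene's geometric mean. Other settings were TPM without the 13 mitochondrially encoded genes, a pseudocount of 0.1, no filter, a mean of 5 TPM, a replicate block, only the groups compared, and each library left out. The code was tested on simulated data. The members and gene lists were chosen with earlier results of these data known. Values per library are given for members called without overlap between the groups (up to 6 per direction, group and comparison) and for a set of central enzymes; of each gene list up to 4 called genes per direction are named, by smallest p. Single results of some listed genes are not reported here. Plots used Python 3.11.15 and matplotlib 3.10.9.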

Additional observations from a re-analysis of the deposited data

Results flagged for a closer look

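No member of either group had an interaction past the threshold in limma. Of the lists around them, 2 of 13 tested regulators and 1 of 10 tested glycogen genes did, and no gene of the other lists, where 2.41% of all genes did. In these 3 genes the difference with MMA was not the same with and without FA. Txnip, which restrains glucose uptake, had an interaction of -0.591 on the log2 scale (SE 0.09, adjusted p = 0.0112). It stood at 184, 177 and 183 TPM in MMA, 188, 171 and 189 TPM in FA, 144, 122 and 126 TPM in MMA_FA, and 163, 179 and 163 TPM in Ctrl libraries. All MMA_FA libraries lay below all others, so MMA_FA against FA was -0.48 and MMA against Ctrl 0.11. Mlx, a transcription factor that pairs with Mlxip, had an interaction of 0.464 (SE 0.08, adjusted p = 0.015). It stood at 33.8, 34.1 and 33.3 TPM in MMA, 37.1, 37.8 and 34.9 TPM in FA, 40.0, 41.0 and 40.2 TPM in MMA_FA, and 41.7, 39.4 and 46.6 TPM in Ctrl libraries. MMA against Ctrl was -0.32 and MMA_FA against FA 0.14. Gyg1, glycogenin, which primes glycogen synthesis, had an interaction of 0.480 (SE 0.09, adjusted p = 0.0188). It stood at 105, 107 and 101 TPM in MMA, 109, 121 and 101 TPM in FA, 123, 124 and 127 TPM in MMA_FA, and 133, 119 and 136 TPM in Ctrl libraries. MMA against Ctrl was -0.30 and MMA_FA against FA 0.18. After median-ratio scaling the interactions were -0.60, 0.46 and 0.47 for Txnip, Mlx and Gyg1, all past the threshold.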

How the results depend on the processing

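Counts of called members (glycolysis, then pyruvate and TCA) with 1 library left out ran from 4 to 6 and 0 to 3 for MMA against Ctrl, 2 to 7 and 0 to 5 for FA, 5 to 6 and 6 to 7 for MMA_FA, 2 to 6 and 0 to 1 for MMA_FA against MMA, 0 to 5 and 0 to 1 against FA, 0 to 2 and 0 to 0 for the interaction and 5 to 14 and 4 to 10 for the F test. Except for median-ratio scaling, the shares of all genes called in these fits and in the settings below are not given here. The counts therefore cannot tell a change of the members from a change of all genes. With FA, no filter left 3 glycolysis and 1 TCA call, dropping mitochondrially encoded genes 2 TCA calls, and fitting only the groups compared 0 TCA calls. For MMA_FA against MMA, no filter and only the groups compared left 3 glycolysis calls, and median-ratio scaling, the replicate block and only the groups compared each left 1 TCA call. For MMA_FA against FA, median-ratio scaling, dropping mitochondrially encoded genes and the replicate block each left 1 glycolysis call, no filter and only the groups compared 0, and median-ratio scaling gave 2 TCA calls. The interaction gave 1 glycolysis call without mitochondrially encoded genes and with a mean of 5 TPM or more. Signs turned after median-ratio scaling for Pgk1 (0.0385), Cs (0.0332) and Dlst (0.0159) with MMA_FA against Ctrl. Of 46 called differences of single members, 264 of 322 values under the other settings kept direction and call, 55 lost the call and 3 turned. The settings differed in this: a pseudocount of 0.1 and a mean of 5 TPM each kept all 46. Median-ratio scaling kept 28, with 15 losing the call and 3 turning. Leaving out 1 library kept 154 of 276 and turned 0. Deviations of libraries with the same replicate number correlated from -0.124 to 0.107 over 18 pairs (1 over 0.1). Those of libraries with different numbers correlated from -0.203 to 0.141 over 36 pairs (4 over 0.1). The labels do not say whether a number marks a shared culture or day, and these correlations cannot settle it. The replicate block moved no other count by over 1.5 times. Except where given above, the cause was not tested. TPM hides depth, and 3 libraries a group limit what can be called.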
